A study of Saccharomyces cerevisiae with 8 samples.

Results

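Messenger RNA of budding yeast cells that expressed targeted guide RNAs was compared with that of cells that expressed control guide RNAs, across the 6016 gene rows of one table of read counts. The members were the 4 RNA-seq libraries of the 8 libraries in the series, 2 from control cells and 2 from targeted cells, each taken from its label. Every library came from BY4741, a haploid laboratory strain of Saccharomyces cerevisiae. All cells carried an mCherry reporter whose codon for lysine 14 had been replaced by the stop codon UAG, together with an expression cassette for guide RNAs. The targeted cassette held 1 guide RNA against the reporter's premature stop codon and 1 against the anticodon of a lysine tRNA, so effects of the guides cannot be told apart. The control cassette held control guide RNAs. All cells were grown to mid-log phase in synthetic glucose medium without leucine and uracil. The labels do not say whether the 2 libraries of a group came from separate cultures or transformants, so p-values measure only the spread between these libraries, which may be technical.

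Pseudouridine is an isomer of uridine that is made after transcription. In box H/ACA particles a guide RNA base-pairs with its target and places the chosen uridine in the active site of the synthase Cbf5, and such guides can be redirected to new sites, including stop codons and tRNA anticodons. A group of mRNAs well known to move together in yeast is that of the general amino acid control. In this pathway the kinase Gcn2 senses uncharged tRNA and phosphorylates an initiation factor, translation of the activator Gcn4 increases, and Gcn4 raises transcription of genes for amino acid synthesis.

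The targeted libraries held more mRNA of a small set of genes, most of them for amino acid metabolism, and no gene passed the test in the lower direction. edgeR's quasi-likelihood test with Benjamini-Hochberg adjustment over 5712 genes called 21 genes higher, 0.368% of those tested, and 0 lower, at an adjusted p threshold of 0.05. The called genes rose 1.30-fold to 1.80-fold. In bulk libraries such as these, more cells with a transcript and more transcript per cell cannot be told apart. The adjustment leaves few genes: at an unadjusted p below 0.05 there were 181 genes on the higher side (3.17%) and 74 on the lower side (1.3%). DESeq2 gave an adjusted p to 2722 genes and placed 28 of them (1.03%) past the threshold on the higher side and 2 (0.0735%) on the lower side. With limma-voom the numbers were 22 (0.385%) and 0. All 21 genes were called by limma-voom, and 18 were called by DESeq2, which gave the rest no adjusted p. Of the 21 genes, 13 belonged to 8 lists of amino acid metabolism with 93 members in all. The other 8 lay outside them, 0.142% of the 5619 other genes tested. Among the 13, 3 came from the list of serine, glycine and one-carbon metabolism, which also holds genes that break glycine down. The other lists are of synthesis. LEU2, HIS3 and MET17 were kept on a separate list of strain markers and are in none of the 8.

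Rows of transposon genes, whose descriptions contain gag, took up most of the counts, and the comparison was made with and without them. These 91 rows held 72.4 and 69.8% of summed counts in the control libraries, against 72.2 and 72.9% in the targeted libraries. Without them 5632 genes were tested, and edgeR called 13 higher (0.231%) and 0 lower. All 13 were among the 21. At an unadjusted p below 0.05 there were 177 genes on the higher side (3.14%) and 68 on the lower side (1.21%) without the rows. On this set DESeq2 placed 30 genes (0.996%) higher and 2 (0.0664%) lower, whereas for limma-voom it was 18 (0.32%) and 0. The log2 changes of the 21 genes moved by at most 0.0025 when the rows were left out. The 8 genes that lost their call had adjusted p from 0.0506 to 0.0643 without the rows. The prior degrees of freedom that edgeR estimated for the spread of genes moved from 6.94 to 6.27, and the number of tests from 5712 to 5632. With unchanged p-values, fewer tests would not raise the adjusted p of these genes. What moved the 8 genes was not tested.

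**Figure D1:**
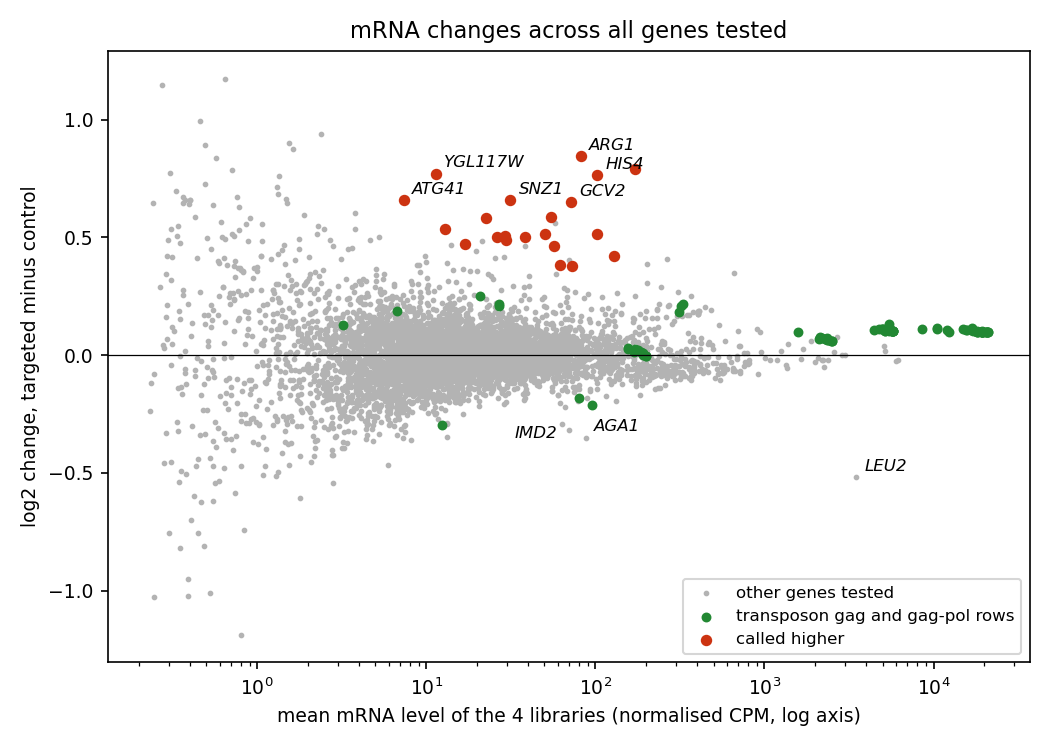
The log2 change of mRNA (targeted minus control, vertical axis) is plotted against the mean normalised CPM of the 4 libraries (horizontal log axis) for the 5712 genes tested, with 91 transposon rows in green and the 21 called genes in red. The called genes lie on the higher side, between log2 changes of 0.38 and 0.85, and the transposon rows reach the highest levels at changes between -0.30 and 0.25.

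**Figure D2:**
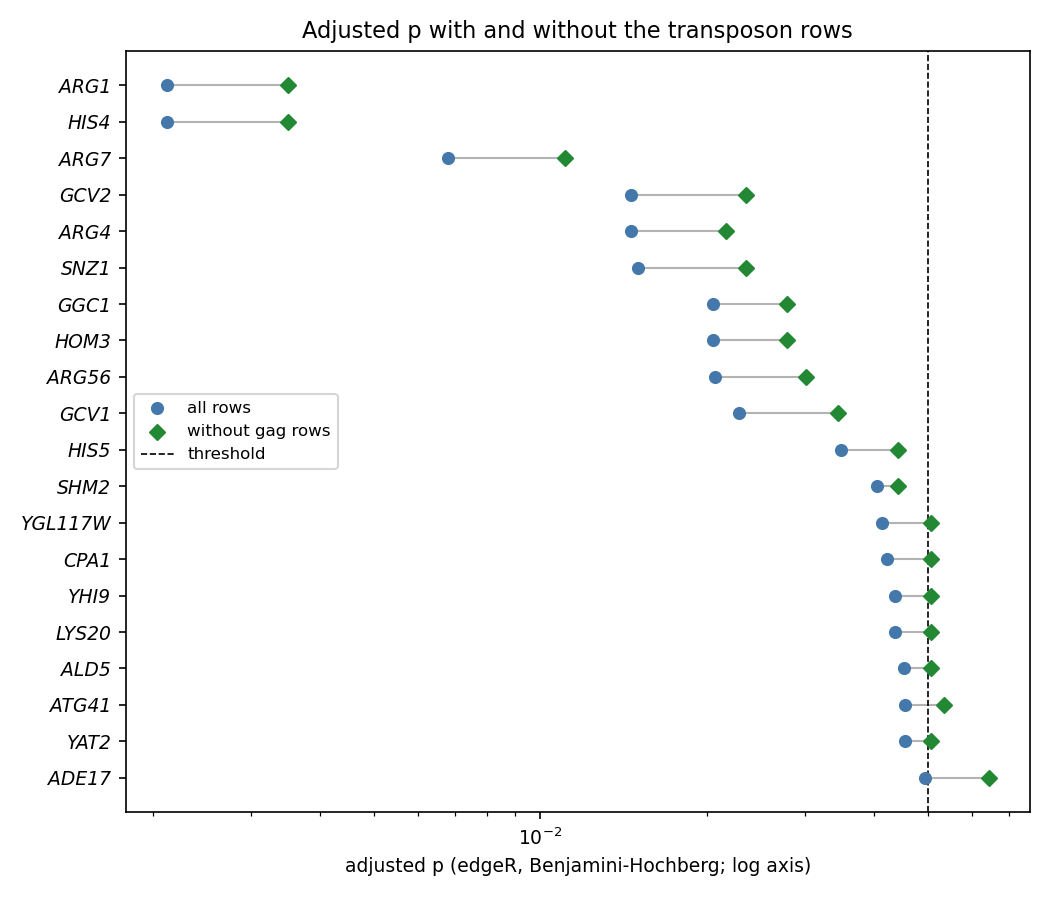
Adjusted p (edgeR, Benjamini-Hochberg, horizontal log axis) is shown for 20 of the 21 called genes with all rows (circles) and without the transposon rows (diamonds), and the dashed line marks the threshold of 0.05. Every plotted gene had a larger adjusted p without the rows, and those at the bottom crossed the line with values from 0.0506 to 0.0643.

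The control libraries summed to 61908589 and 33911841 counts, and the targeted libraries to 33947846 and 21073013. Of these, 17106676, 10248533, 9426802 and 5710820 lay outside the transposon rows. Across the 3532 genes with a mean of at least 10 normalised CPM (counts relative to the library total, scaled with TMM factors), Pearson r between replicates was 0.998 for the control pair and 0.996 for the targeted pair. This is a description across genes, which are not independent replicates. In chi-square tests replicates differed by 5.34 and 6.99 per degree of freedom outside the transposon rows, more than sampling noise. Leaving out a library had a large effect on the count of calls. Without control replicate 1, edgeR called 0 genes, with 113 genes on the higher side and 86 on the lower side at an unadjusted p below 0.05. It called 20 higher and 1 lower without control replicate 2, 9 higher without targeted replicate 1, and 13 higher without targeted replicate 2. The lone library of a group was then assumed to vary like the other group. All 21 genes stayed above 0 in these 4 fits, with log2 changes from 0.36 to 0.91. Both targeted libraries of each gene already lay above both control libraries, by at least 1.27-fold, so that sign was largely fixed in advance. With the replicate number as a block, edgeR called 19 genes higher (0.333%), 18 of them among the 21. Shares called higher were 0.401% with no filter on low counts, 0.35% with RLE scaling, 0.263% with library size only and 0.728% with a minimum of 10 CPM in 2 libraries, beside 0.035% and 0.084% called lower in the last pair.

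Markers of the cells were read in the same libraries. MFA1, the gene of the mating pheromone of MATa cells such as BY4741, had 75.04 and 66.9 CPM in control cells and 67.6 and 53.7 CPM in targeted cells. STE2, the receptor for the opposite pheromone, had 214 and 215 CPM in control cells and 202 and 212 CPM in targeted cells. MFA2, STE6, BAR1 and AGA2, further genes of MATa cells, differed by -0.08 ± 0.07, 0.08 ± 0.08, -0.17 ± 0.07 and -0.17 ± 0.09 on the log2 scale, each with an edgeR adjusted p of 0.973. The pheromone genes of MATalpha cells were near 0, with 8, 5, 4 and 1 reads of MF(ALPHA)1 and 1, 3, 0 and 0 of MF(ALPHA)2 in control replicates 1 and 2 and targeted replicates 1 and 2. SAG1, the agglutinin of MATalpha cells, was not at 0, with 8.95 and 9.32 CPM in control cells and 8.404 and 10.99 CPM in targeted cells, a difference of 0.07 ± 0.13 (edgeR adjusted p of 0.9804). For STE3, the receptor of MATalpha cells, there were between 1.14 and 1.75 CPM. Genes of meiosis and sporulation were low as well, with at most 3.36 CPM for IME1, 2.97 for IME2, 0.993 for SPO11 and 1.297 for SPS4 in any library. MET17, deleted in this strain, had 1 and 1 reads in control cells and 1 and 0 reads in targeted cells.

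Arginine synthesis held the most called genes. Of its 10 listed genes, all tested, 6 were called higher, and the median log2 change was 0.51, beside 0.00 over all genes tested. The other 4 had log2 differences of 0.27 to 0.39. Between the groups, the libraries of all 10 genes did not overlap, where 16.2% of all genes tested were higher without overlap. Summed over the list, the level was 415 and 434 CPM in control cells and 669 and 653 CPM in targeted cells, higher in both targeted libraries than in both control libraries. Without control replicate 1, whose omission ended all calls, the list's median was 0.43.

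ARG1 encodes argininosuccinate synthetase, which joins citrulline and aspartate near the end of the pathway. Its gene lies on chromosome 15, 219211 to 220473, plus strand (build R64), a single uninterrupted coding region of 1263 bases. ARG1 had 56.3 and 61.5 CPM in control cells and 109.6 and 102 CPM in targeted cells. Both targeted libraries lay above both control libraries, and the lowest targeted value was 1.65 times the highest control value. ARG1 rose by a log2 change of 0.85 ± 0.07 (SE; edgeR adjusted p of 0.00212, and 0.00351 without the transposon rows). It rose the most among called genes. ARG4, the argininosuccinate lyase that releases arginine in the last step, lies on chromosome 8, 140011 to 141402, minus strand. It had 85.2 and 84.04 CPM in control cells and 120.3 and 122 CPM in targeted cells, and its groups did not overlap. ARG4 rose by 0.52 ± 0.06 on the log2 scale (edgeR adjusted p of 0.0146, and 0.0216 without the transposon rows).

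Among the called genes were enzymes of ornithine synthesis in mitochondria. ARG7, an ornithine acetyltransferase, had 43.7 and 43.4 CPM in control cells and 66.3 and 64.1 CPM in targeted cells, with replicates that differed by less than the groups. Its log2 change was 0.59 ± 0.06 with an edgeR adjusted p of 0.00681. ARG56, whose protein is cleaved into the kinase and the reductase that act on acetylglutamate, had 39.8 and 43.1 CPM in control cells and 60.5 and 57.4 CPM in targeted cells. The change of ARG56 was 0.51 ± 0.07 on the log2 scale with an edgeR adjusted p of 0.0207. CPA1 is the small subunit of the carbamoyl phosphate synthetase that serves arginine, and its mRNA is known for an upstream reading frame through which arginine represses its translation. CPA1 had 29.9 and 33.9 CPM in control cells and 45.9 and 44.1 CPM in targeted cells, a log2 change of 0.50 ± 0.08. The edgeR adjusted p was 0.0422 with the transposon rows and 0.0506 without, and CPA1 was called in 12 of 16 settings. Over these the adjusted p ranged from 2.31e-08 to 0.652.

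**Figure D3:**
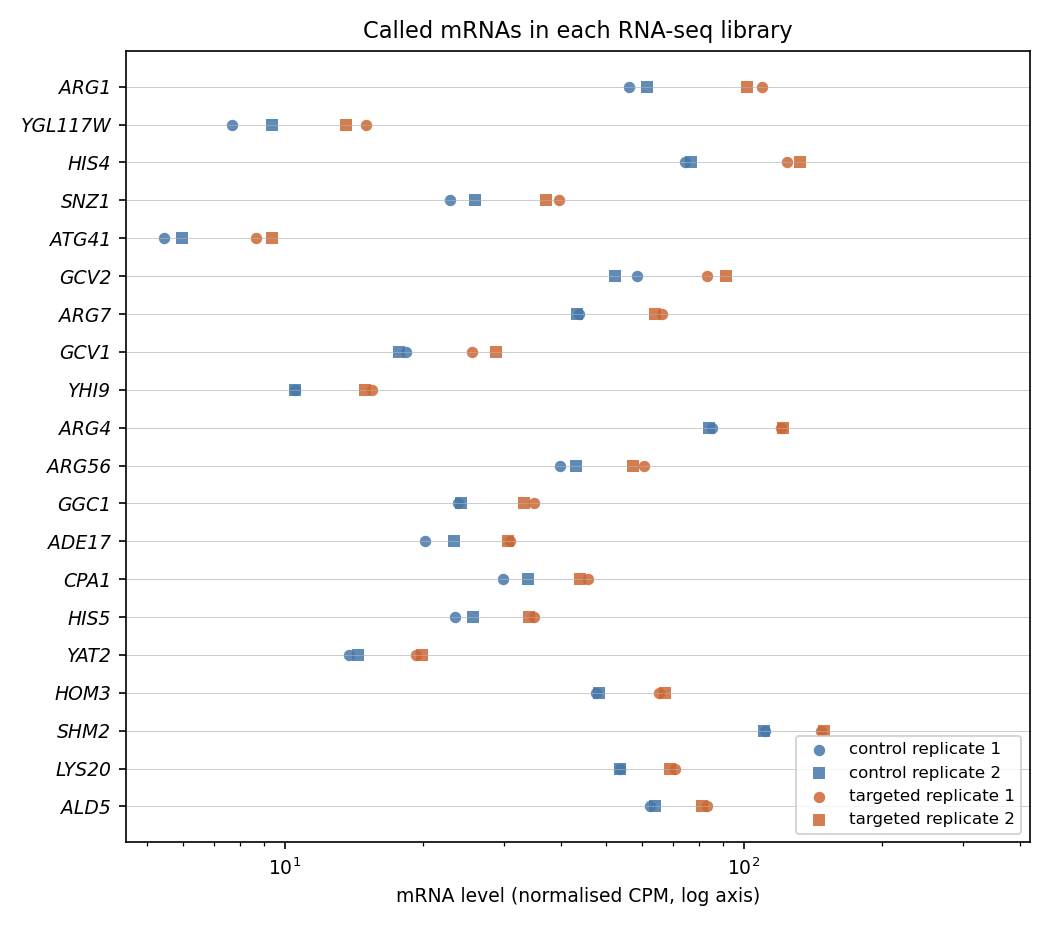
Normalised CPM (horizontal log axis) is shown for 20 of the 21 called genes in each of the 4 RNA-seq libraries, with control cells in blue, targeted cells in orange, circles for replicate 1 and squares for replicate 2. Both targeted points lie to the right of both control points in every row, from ALD5, with a log2 change of 0.38, to ARG1, with 0.85.

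Histidine synthesis followed. Of 6 listed genes, 2 were called higher, all 6 were above 0 and the median log2 change was 0.35. HIS4 encodes an enzyme of several steps of the pathway and is a classic reporter of the general amino acid control. It lies on chromosome 3, 65934 to 68333, minus strand, and had 74.4 and 76.9 CPM in control cells and 124 and 133 CPM in targeted cells. The lowest targeted value was 1.62 times the highest control value. HIS4 rose by 0.76 ± 0.07 on the log2 scale, with an edgeR adjusted p of 0.00212, and of 0.00351 without the transposon rows. HIS5, a histidinol phosphate aminotransferase, had 23.5 and 25.7 CPM in control cells and 34.9 and 33.97 CPM in targeted cells. It rose by 0.49 ± 0.07 (edgeR adjusted p of 0.0348), a call that was lost with library size only (adjusted p of 0.0701). HIS5 was called in 12 of 16 settings, and the other losses came with a library left out. HIS1, the first enzyme of the pathway, had 57.7 and 63.1 CPM in control cells and 81.96 and 77.7 CPM in targeted cells. HIS1 was past the threshold in DESeq2 (adjusted p of 0.00417) and not in edgeR (adjusted p of 0.0554). HIS3, of which BY4741 retains a part, differed by 0.35 ± 0.07 (edgeR adjusted p of 0.181).

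Genes of serine, glycine and one-carbon metabolism split. Of 14 listed genes 3 were called higher, and the list's median log2 change was 0.13, with 10 above 0 and 4 below. The glycine decarboxylase complex of mitochondria breaks glycine down and passes its carbon to folate. GCV2, the P subunit of that complex, lies on chromosome 13, 637500 to 640604, plus strand, and had 58.5 and 52.5 CPM in control cells and 83.1 and 91.7 CPM in targeted cells. GCV2 rose by 0.65 ± 0.08 (edgeR adjusted p of 0.0146, and 0.0235 without the transposon rows). GCV1, the T subunit, had 18.4 and 17.7 CPM in control cells and 25.6 and 28.8 CPM in targeted cells. Its groups did not overlap, and it rose by 0.58 ± 0.08 (edgeR adjusted p of 0.0228). GCV3, the H subunit, differed by 0.34 ± 0.07 without passing (edgeR adjusted p of 0.158). SHM2, the cytosolic serine hydroxymethyltransferase that interconverts serine and glycine, had 111 and 111 CPM in control cells and 147 and 149.9 CPM in targeted cells, and rose by 0.42 ± 0.06 (edgeR adjusted p of 0.0404). SHM2 lost its call with the replicate number as a block (adjusted p of 0.0571) and with library size only (0.2674), within a range of 6.22e-07 to 0.652 over the 16 settings.

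In the aspartate family 1 of 19 listed genes was called. HOM3, the aspartate kinase that commits aspartate to threonine and methionine, had 47.5 and 48.4 CPM in control cells and 65.4 and 67.2 CPM in targeted cells. HOM3 rose by 0.47 ± 0.06 (edgeR adjusted p of 0.0205), a call that was lost with library size only (adjusted p of 0.0918). HOM3 was called in 13 of 16 settings, and the other losses came with a library left out. HOM2, the next enzyme, had 174 and 176 CPM in control cells and 234 and 223 CPM in targeted cells, a log2 difference of 0.38 ± 0.07 that edgeR did not call (adjusted p of 0.0632) and DESeq2 did (adjusted p of 0.000556). The list's median was 0.14, with 14 genes above 0 and 5 below, and 0.04 without control replicate 1.

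Lysine synthesis had 1 called gene of 10, and all 10 were above 0, with a median of 0.17. LYS20, one of the homocitrate synthases that start the pathway, lies on chromosome 4, 133437 to 134723, plus strand. LYS20 had 53.6 and 53.8 CPM in control cells and 70.9 and 68.9 CPM in targeted cells, and the groups did not overlap. It rose by 0.38 ± 0.06 (edgeR adjusted p of 0.0437), a call that was lost without the transposon rows (0.0506), with the replicate number as a block (0.05304) and with library size only (0.5399), within a range of 1.84e-05 to 0.743 over the 16 settings. Its paralog LYS21 differed by 0.27 ± 0.06 (edgeR adjusted p of 0.205), and reads shared by such close copies make both values uncertain. LYS1, which forms lysine in the last step, differed by 0.41 ± 0.07 and was not called by edgeR (adjusted p of 0.0632), but was by DESeq2 (adjusted p of 0.0491).

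Of the branched-chain and aromatic lists edgeR called no gene. All 11 listed genes of leucine, isoleucine and valine synthesis were above 0, from 0.08 to 0.41, with a median of 0.22. That list leaves out LEU2, a gene of leucine synthesis kept with the strain markers, which differed by -0.52 ± 0.10. LEU4, the synthase that starts the leucine branch, had 228 and 225 CPM in control cells and 295 and 306 CPM in targeted cells, a difference of 0.41 ± 0.07 with an edgeR adjusted p of 0.0524 and a DESeq2 adjusted p of 0.000106. LEU1, the isomerase that follows, had 589.9 and 574 CPM in control cells and 745 and 738 CPM in targeted cells. For LEU1 the difference was 0.35 ± 0.07, with an edgeR adjusted p of 0.147 and a DESeq2 adjusted p of 0.000924. Their groups did not overlap. Among 14 genes of aromatic synthesis 13 were above 0, with a median of 0.17. ARO3, an entry enzyme of that pathway, had 51.4 and 51.3 CPM in control cells and 65.4 and 64.97 CPM in targeted cells, a difference of 0.34 ± 0.06 with an edgeR adjusted p of 0.0571. For glutamate, glutamine, asparagine and proline synthesis 6 of 9 genes were above 0, the median was 0.09 and edgeR called no gene. Its smallest p belonged to ASN1, an asparagine synthetase, at 0.27 ± 0.07 (edgeR adjusted p of 0.359).

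Taking the 8 lists as a whole, 80 of 93 genes were above 0, with a median of 0.18, and 11 of the 13 called genes kept their call without the transposon rows. The summed level was 9410.1 and 9438 CPM in control cells and 10848 and 10914 CPM in targeted cells. That sum leaves out LEU2. The marker list, which holds LEU2, HIS3, URA3 and MET17, summed to 4563 and 4273 CPM in control cells. In targeted cells it summed to 2997 and 3365 CPM, so the separation of the summed level holds only for lists without LEU2. For 65 of the 93 genes both targeted libraries were above both control libraries, and for 5 genes both were below, beside 16.2% and 16.1% of all genes tested. Under scaling by library size alone the 93 genes had a median of 0.10, when that of all genes was -0.07.

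**Figure D4:**
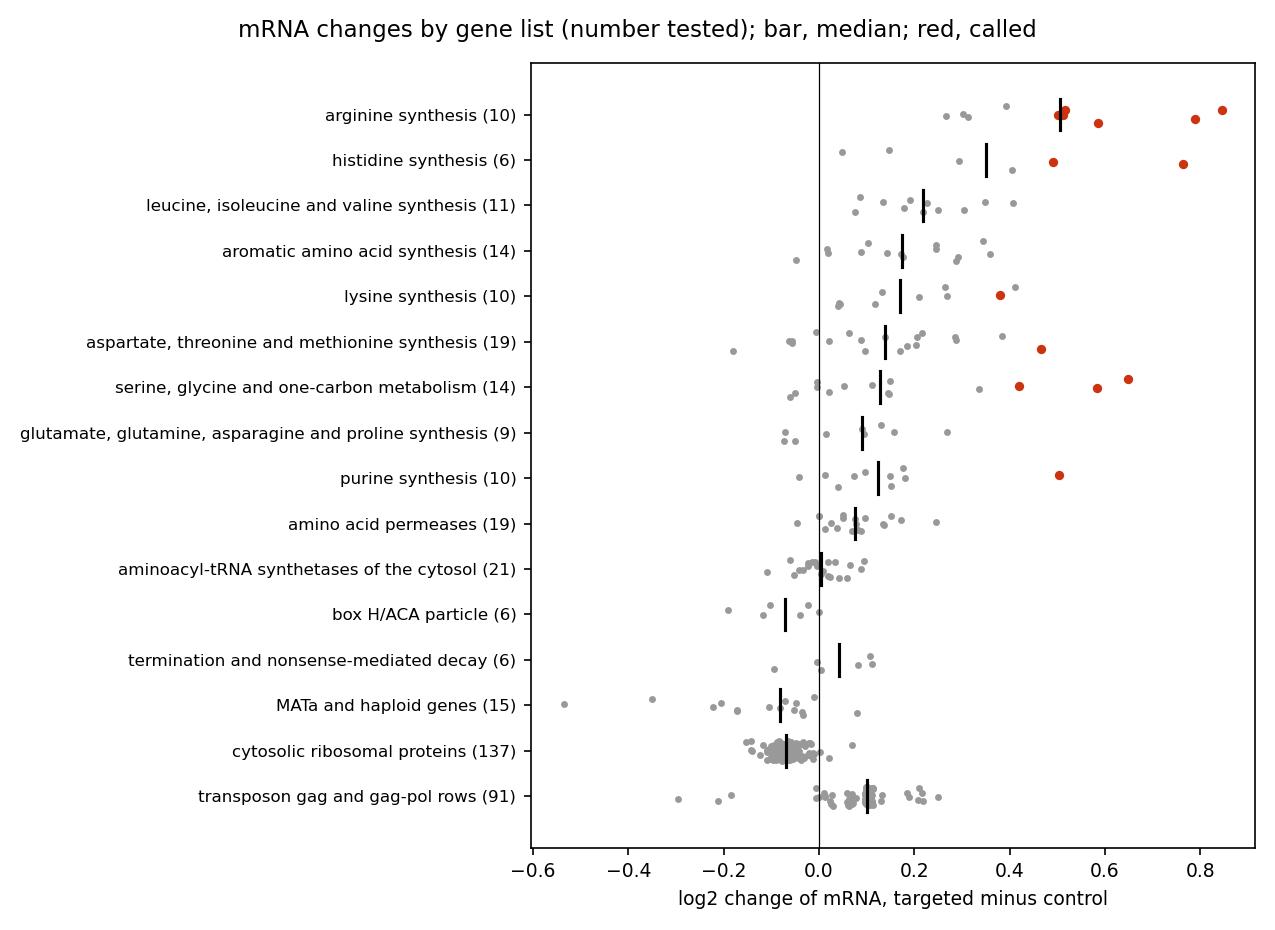
Each point is the log2 change of mRNA (targeted minus control, horizontal axis) of 1 tested gene, in rows for 16 gene lists with the number tested in brackets, and a black bar marks each list's median. Called genes (red) lie in arginine, histidine, lysine, aspartate and glycine metabolism and purine synthesis, and the medians run from 0.51 in arginine synthesis to -0.08 in genes of MATa cells.

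The 8 called genes outside the amino acid lists covered several functions. SNZ1, which takes part in vitamin B6 synthesis, had 22.9 and 25.97 CPM in control cells and 39.6 and 37.1 CPM in targeted cells. SNZ1 rose by 0.66 ± 0.08 (edgeR adjusted p of 0.01499, and 0.0235 without the transposon rows), while 4 of the 7 genes on the vitamin B6 list lay below 0. Its neighbour and partner SNO1 differed by 0.60 ± 0.16 at 2.63 to 4.65 CPM (edgeR adjusted p of 0.462). GGC1, the mitochondrial carrier of guanine nucleotides, had 23.9 and 24.2 CPM in control cells and 34.9 and 33.2 CPM in targeted cells, and rose by 0.51 ± 0.07 (edgeR adjusted p of 0.0205, and 0.0279 without the transposon rows).

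The other 6 kept no edgeR call without the transposon rows. YGL117W, a gene of uncharacterised function, had 7.65 and 9.37 CPM in control cells and 15.1 and 13.6 CPM in targeted cells, a log2 change of 0.77 ± 0.12 (edgeR adjusted p of 0.0413). ATG41, which acts in autophagy, had 5.45 and 5.96 CPM in control cells and 8.64 and 9.36 CPM in targeted cells, a change of 0.66 ± 0.11 (edgeR adjusted p of 0.0455). At these low levels the SE was larger than for ARG1. ALD5, a mitochondrial aldehyde dehydrogenase, had 62.4 and 64.1 CPM in control cells and 82.97 and 81.3 CPM in targeted cells, and rose by 0.38 ± 0.06 (edgeR adjusted p of 0.0452). ALD5 also lost its call with the replicate block (0.0571) and with library size only (0.5535), in a range of 1.60e-05 to 0.866. ADE17, an enzyme of the last steps of purine synthesis, had 20.2 and 23.4 CPM in control cells and 30.9 and 30.6 CPM in targeted cells, and rose by 0.50 ± 0.08 (edgeR adjusted p of 0.0495). ADE17 was the called gene closest to the threshold, and may share reads with its paralog ADE16. On the purine list of 10 genes it was the only one called, and the median was 0.12. YAT2, a carnitine acetyltransferase, rose by 0.47 ± 0.08 and YHI9 by 0.54 ± 0.08, with edgeR adjusted p of 0.0455 and 0.0437. ALD5, YAT2 and YHI9 were not called in any of the 4 fits with a library left out.

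The 21 genes were spread over the genome. They lay on 11 chromosomes, 10 of them on the plus strand, and the coding length of each of the 21 equals its span, so none is interrupted. Their median coding length was 1326 bases, beside 1248 bases over all genes tested. On the scale of deposited RPKM, which is per length, their mean levels ran from 5.98 to 90.5 with a median of 31.6, beside 10.7 for all tested genes outside the transposon rows. Genes at higher levels have smaller counting error, and the part of this in which genes were called was not tested.

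The genes that carry the general amino acid control were not called in mRNA. GCN4, the transcription activator, had 209.6 and 228 CPM in control cells and 245 and 243 CPM in targeted cells, a log2 difference of 0.16 ± 0.07 with a 95% interval from -0.01 to 0.32 (edgeR adjusted p of 0.973). Its groups did not overlap, as was so, on the higher side, for 16.2% of genes tested. GCN2, the kinase, was at 0.04, GCN1 and GCN20, which act with it, at 0.08 and 0.02, and GCN3 and SUI2, subunits of the initiation factors the pathway acts through, at -0.04 and -0.01. GCN2 and GCN20 were below 0 with library size as the only scaling. PCL5, a cyclin that takes part in Gcn4 breakdown, had 29.9 and 35.04 CPM in control cells and 47.04 and 41.9 CPM in targeted cells, a difference of 0.46 ± 0.09 that DESeq2 called (adjusted p of 0.0116) and edgeR did not (adjusted p of 0.111).

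Genes for the uptake and charging of amino acids gave no call. Of 19 permease genes 17 were above 0, at most 0.25, with a median of 0.08, and 0 were called by edgeR, at adjusted p of 0.973 for BAP2 (0.17 ± 0.06) and for MUP1 (0.15 ± 0.07). The 21 cytosolic aminoacyl-tRNA synthetases lay from -0.11 to 0.09, with 11 above 0, a median of 0.01 (-0.07 with library size only) and 0 calls. KRS1, which charges the lysine tRNA, had 218 and 222 CPM in control cells and 241 and 226 CPM in targeted cells, a difference of 0.09 ± 0.07 (edgeR adjusted p of 0.973). Genes that break down arginine and proline had a median of 0.04 over 7 genes and 0 calls.

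No gene passed on the lower side in the main edgeR fit, so the following are values. LEU2, the isopropylmalate dehydrogenase of leucine synthesis, is deleted in BY4741, so an introduced copy is the source of its reads. Which construct carries it is not stated in the labels. LEU2 had 4251 and 3940.0 CPM in control cells and 2667 and 3047 CPM in targeted cells, and both targeted libraries lay below both control libraries. The difference was -0.52 ± 0.10 with an edgeR adjusted p of 0.0971 (0.0709 without the transposon rows). DESeq2 called it lower (adjusted p of 3.15e-06), and so did edgeR with library size only (-0.593, adjusted p of 1.34e-14). That scaling moved the median of all genes to -0.07. Without control replicate 2 the edgeR value of LEU2 was -0.575. Over the 16 settings, its adjusted p ranged from 1.34e-14 to 0.652. The medium lacked leucine, and the lower LEU2 level stood in the same libraries as the higher levels of the amino acid lists. Its part in those levels was not tested. URA3, the other marker that such medium selects for, had 291 and 312 CPM in control cells and 303 and 293 CPM in targeted cells, a difference of -0.02 ± 0.07 (edgeR adjusted p of 0.989).

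IMD2, an IMP dehydrogenase of guanine nucleotide synthesis with close paralogs, had 77.7 and 77.5 CPM in control cells and 62.00 and 62.6 CPM in targeted cells, a difference of -0.32 ± 0.06 (edgeR adjusted p of 0.0936). AGA1, the cell wall anchor of the agglutinin of MATa cells, had 102 and 94.1 CPM in control cells and 77.4 and 76.5 CPM in targeted cells, a difference of -0.35 ± 0.07 (edgeR adjusted p of 0.0971, DESeq2 adjusted p of 0.01803). With a minimum of 10 CPM in 2 libraries, edgeR called LEU2, IMD2 and AGA1 lower. With library size only it called LEU2 and AGA1 lower (adjusted p of 0.0411 for AGA1). Among 15 genes of MATa and haploid cells 14 were below 0, with a median of -0.08 and 0 called. The next genes by p on this side, NAT5, URA8, YGP1, SAM2, OPI3 and the transposon rows YGR109W-A and YIL082W-A, had edgeR adjusted p from 0.466 to 0.936, so they are not separable from the spread between libraries.

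Genes of the pseudouridylation machinery and of translation termination gave no call. The 6 genes of the box H/ACA particle lay from -0.19 to 0.00, with a median of -0.07 (-0.01 without targeted replicate 2). CBF5, the synthase, had 125 and 124 CPM in control cells and 122 and 109 CPM in targeted cells, a difference of -0.10 ± 0.07 (edgeR adjusted p of 0.973). Targeted replicate 2 was the lowest library for CBF5, and also for NOP10 and NHP2, further proteins of the particle. The 9 stand-alone pseudouridine synthases had a median of 0.06, and -0.01 with library size only. They ran from PUS5 at -0.18 ± 0.17 to PUS9 at 0.14 ± 0.10, with PUS1 at 0.06 ± 0.07, PUS2 at -0.01 ± 0.14, DEG1 at 0.08 ± 0.10, PUS4 at 0.06 ± 0.12, PUS6 at 0.07 ± 0.14, PUS7 at 0.05 ± 0.06 and RIB2 at 0.05 ± 0.10. For translation termination SUP35 and SUP45, the release factors, were at 0.00 ± 0.06 and 0.00 ± 0.07, and the nonsense-mediated decay factors NAM7, NMD2, UPF3 and EBS1 at 0.08 ± 0.07, 0.11 ± 0.07, -0.09 ± 0.10 and 0.11 ± 0.07. Each of these genes had an edgeR adjusted p of at least 0.973. A 95% interval for SUP35 ran from -0.14 to 0.14 on the log2 scale.

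In several gene groups 1 library stood apart. Summed cytosolic ribosomal protein mRNA was 42095 and 42809.6 CPM in control cells and 42736 and 38521 CPM in targeted cells, lowest in targeted replicate 2. Of 137 such genes 134 were below 0, with a median of -0.07, but the median was 0.01 without targeted replicate 2 and 0 were called by edgeR. The general stress list, of genes that rise as growth slows, had 805 and 849.9 CPM in control cells and 732 and 933 CPM in targeted cells. There the targeted libraries were the lowest and the highest, and the median was -0.01 with values of 0.22 without targeted replicate 1 and -0.17 without targeted replicate 2. HSP12, a stress-induced membrane protein, had 33.7 and 38.6 CPM in control cells and 30.6 and 53.5 CPM in targeted cells. For mitochondrially encoded genes the control libraries were the lowest and the highest, with 1810.4 and 2164 CPM in control cells and 1976 and 2027 CPM in targeted cells. For the amino acid lists, which leave out LEU2, the level in both targeted libraries was above that of both control libraries. The part of growth state in the called genes was not tested.

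**Figure D5:**
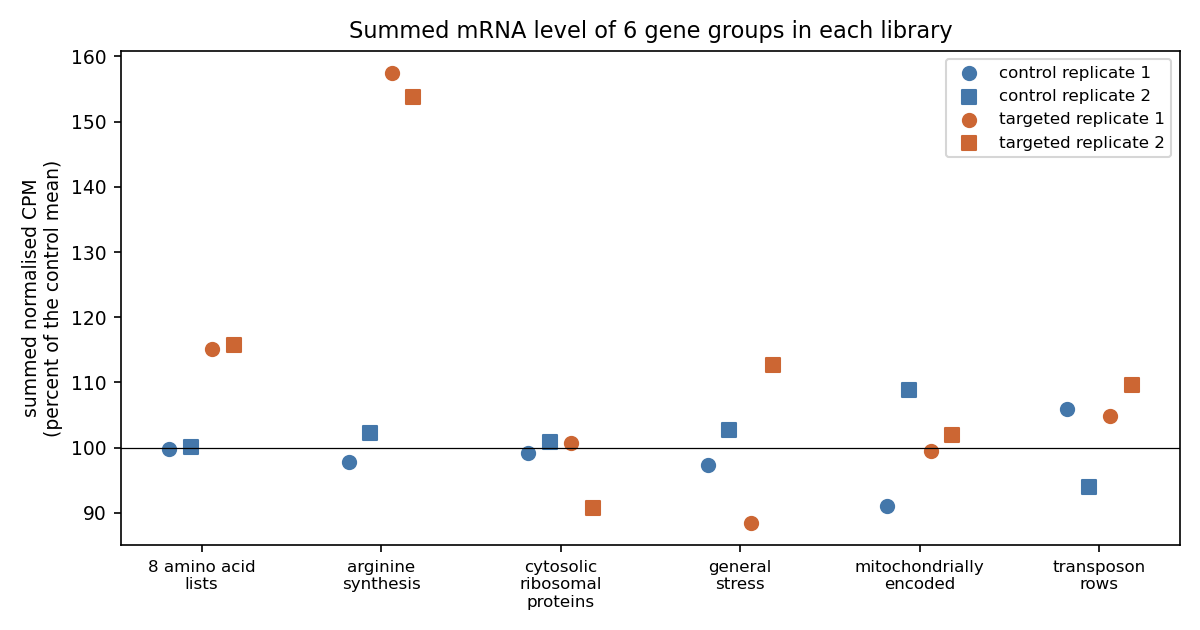
The summed normalised CPM of 6 gene groups is shown for each of the 4 libraries as a percent of the mean of the control libraries (vertical axis, not starting at 0). Targeted libraries lie above both control libraries for arginine synthesis and for the 8 amino acid lists, which leave out LEU2. Targeted replicate 2 is lowest for ribosomal proteins and highest for general stress.

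The transposon rows themselves gave no call. Of 91 tested rows 86 were above 0, with a median of 0.10 (0.03 with library size only), a range of -0.30 to 0.25 and a smallest edgeR adjusted p of 0.755. The median depended on the control libraries, at 0.19 without control replicate 1 and 0.01 without control replicate 2. Their summed level was 735784 and 652449 CPM in control cells and 728146 and 760689 CPM in targeted cells, with control replicate 2 lowest and control replicate 1 above targeted replicate 1. The largest negative value was that of YGR109W-A at -0.30 ± 0.09, a row of the Ty3 family, with 13.9 and 13.2 CPM in control cells and 10.5 and 11.8 CPM in targeted cells. Of the 91 rows 14 had counts identical to another row in every library, so that a read may have been counted in each copy and the shares of these rows may exceed those of the reads.

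Footprint counts of the same genes came from the same lysates and are a further readout, not further cultures. In a separate edgeR fit of the 4 RIBO-seq libraries, 32 of 5461 genes were called higher (0.586%) and 0 lower, and of the 21 genes called in mRNA 19 were called higher there. All 21 were above 0. For ARG1 the footprint log2 change was 0.93 ± 0.07 and for HIS4 0.96 ± 0.07, beside mRNA changes of 0.85 ± 0.07 and 0.76 ± 0.07, with footprint adjusted p of 9.00e-05 for each. CPA1 and YAT2 were not called in footprints, at 0.18 ± 0.10 and 0.42 ± 0.12 (edgeR adjusted p of 0.999 and 0.423). GCN4, not called in mRNA, was called in footprints at 0.82 ± 0.12 (edgeR adjusted p of 0.00863). Whether mRNA and footprint changes differed at these genes was not tested here.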

How the data were processed

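Counts of 4 RNA-seq libraries were compared between control and targeted cells, and 4 RIBO-seq libraries were fitted over all rows by the same test, as a further readout of the genes called in mRNA and of GCN4. The deposited count columns hold whole reads per gene and the deposited RPKM columns are those reads per coding length and library total, per the file headers. The deposited ratio (translational efficiency) columns were not used. Per the labels' protocols RNA was taken from an aliquot of lysate, depleted of rRNA and fragmented to the size of footprints (25 to 33 nt), although the labels also name the molecule as polyA RNA. The submitters' processing notes name cutadapt, STAR and build R64, and no versions. How reads were counted, with which strand setting and how multi-mapping reads were treated is not stated in the sources used, so close paralogs and overlapping or antisense genes are uncertain. 40 rows shared identical counts in every library with another row. In RefSeq's gene table for R64, 6013 of the 6016 locus tags were found, 6012 of them at equal coordinates.

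The test was that of edgeR 4.0.16 under R 4.3.3 (TMM scaling, filterByExpr, quasi-likelihood test, two-sided, Benjamini-Hochberg, threshold 0.05). Alternatives were DESeq2 1.42.0, limma-voom (limma 3.58.1), other scalings and filters, a replicate block and leaving out each library. Groups are those of the labels, with 2 libraries each. Each SE is that of the log2 change, and intervals are at 95%. The gene set and lists (written from textbook knowledge) were chosen with earlier results of these data known, so list counts and medians are descriptions and carry no test. Genes were named by rule: all called genes, the 10 smallest p on the lower side with at least 10 CPM, genes called by 1 other tool only, up to 4 members of each list by p, and every member of the machinery and marker lists. Not every list member so taken is printed, since lists are summarised by medians and ranges, and 1 called gene is left unreported. Promoter, protein and guide sequences were not used here, and reporter and guide RNA levels were not analysed. On simulated counts over 5712 genes the mRNA fit recovered 34 of 67 genes changed 1.25-fold and 67 of 67 changed 1.5-fold. It recovered 66 of 66 changed 2-fold. Over the whole run there were 8 false calls among the genes left unchanged. The simulation gave all genes the same dispersion and changed only genes with a mean of at least 10 CPM. Its recovery is therefore not the power of the real comparison, where spread differs between genes and many genes are lower.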

Additional observations from a re-analysis of the deposited data

How the results depend on the processing

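Of the 21 called genes, 13 kept their call with library size only and 18 with DESeq2, so like counts need not hold the same genes. The count of 21 called mRNAs stayed within 1.5 times under DESeq2 (30), limma-voom (22) and limma-voom without the transposon rows (18). It also stayed so under RLE scaling (20), library size only (17), no filter on low counts (24) and a minimum of 10 CPM (29). It was 13 without the transposon rows, 32 with DESeq2 on the remaining rows and 0 to 21 with a library left out. A drop to 0 came only without control replicate 1. The replicate block gave 19 calls. Deviations of same-numbered libraries correlated with r of -0.16, and the labels name no shared batch or day, so the pairing is by number only. With the numbers crossed, an alternative chosen after seeing the data like the DESeq2 and limma-voom fits without transposon rows, 71 genes were called. The footprint count of 19 ranged from 14 to 20. Of 1009 values recomputed for 70 genes 36 changed sign, and each of these genes had a main log2 value of at most 0.07 in size. None was a called gene, and the groups of called genes did not overlap, which leaves little room for a change of sign. Without the transposon rows the log2 values that changed sign were NAF1 (0.001439). With limma-voom without the transposon rows the log2 values that changed sign were NAF1 (0.0008875). With library size only the log2 values that changed sign were PUS1 (-0.01173), PUS4 (-0.001612), PUS6 (-0.002326), PUS7 (-0.02336), RIB2 (-0.01151), SUP45 (-0.0704), GCN2 (-0.03507) and GCN20 (-0.05475), which follows from that scaling, since it moved the median of all genes from 0.00 to -0.07. With the crossed replicate block the log2 values that changed sign were PUS2 (0.007486). With limma-voom the value that changed sign was SUP45 (-0.0009235). With at least 10 CPM in 2 libraries the value that changed sign was SUP45 (-0.001088). With a library left out, values changed sign within ranges of -0.0992 to 0.0391 for GAR1, -0.108 to 0.0771 for NAF1, -0.191 to 0.0957 for SHQ1, -0.119 to 0.124 for PUS2, -0.0724 to 0.229 for PUS4, -0.09799 to 0.2202 for PUS6, -0.0559 to 0.1701 for RIB2, -0.0272 to 0.0165 for SUP35, -0.0538 to 0.0555 for SUP45, -0.0478 to 0.123 for GCN2, -0.0167 to 0.0528 for GCN20, -0.109 to 0.0152 for GCN3, -0.0622 to 0.0383 for SUI2 and -0.0671 to 0.0339 for URA3. The cause of the shifts with a library left out was not tested. Counts outside the transposon rows, lowest in targeted replicate 2 at 5710820, limit what low genes can show.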

Other observations

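The gene groups below gave no call in edgeR and are described by the medians of their log2 changes. Glycolysis and fermentation (19 genes), cytosolic chaperones (16) and ribosome biogenesis (22) had medians of 0.01, 0.01 and 0.00, and each was below 0 with library size only. The tricarboxylic acid cycle, the unfolded protein response and ergosterol synthesis had medians of -0.02, -0.02 and -0.02. Hexose transporters (7 genes) had a median of -0.08, the phosphate regulon (11) -0.10 and the iron regulon (15) 0.05, the last below 0 with library size only.

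Among 32 proteasome subunit genes 21 were below 0, with a median of -0.03, and for 12 of them both targeted libraries lay below both control libraries, beside 16.1% of all genes tested. For PRE1, a subunit of the proteolytic core, the difference was -0.12 ± 0.07, with 31.9 and 33.9 CPM in control cells and 31.00 and 29.6 CPM in targeted cells (edgeR adjusted p of 0.973). Mitochondrial ribosomal proteins showed 56 of 75 genes below 0, with a median of -0.05, and 0 called. TIR1, a cell wall mannoprotein on the list of flocculins and seripauperins, had 3.301 and 3.34 CPM in control cells and 2.35 and 2.18 CPM in targeted cells, a difference of -0.54 ± 0.15 with an edgeR adjusted p of 0.522, while the median over the 13 tested genes of that list was 0.21. Many of those genes are near-identical copies at low counts. Meiosis genes (9 tested) had a median of -0.04 and the 2 tested MATalpha genes a median of 0.02.

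Genes called by DESeq2 and not by edgeR included ADH5, an alcohol dehydrogenase (0.44 ± 0.07, edgeR adjusted p of 0.0525), RIB5, a riboflavin synthase (0.42 ± 0.08, 0.1004), and ILV2, an acetolactate synthase (0.31 ± 0.07, 0.173). ADH5 also had an edgeR call with the replicate block.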
